A study of Drosophila melanogaster with 24 samples.

Results

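The X chromosome of Drosophila melanogaster held 791 of the 7810 peaks listed for the circadian activators CLOCK (CLK) and CYCLE (CYC) in heads, testes and ovaries. Its members were every peak on chrX in the 6 lists, 1 list for each protein and tissue, and no measured value entered the choice. The CLK lists gave 147 X peaks in head, 34 in testis and 107 in ovary, and the CYC lists gave 41, 56 and 406. A further 2 peaks on an unplaced X contig, 1 in CYC testis and 1 in CYC ovary, were not counted as members.

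The libraries came from chromatin immunoprecipitation with an antibody against GFP, from tissue taken at zeitgeber time 10 h, that is late in the light phase. Each of the 6 GFP groups (CLK head, CLK testis, CLK ovary, CYC head, CYC testis and CYC ovary) had 2 libraries of 200 heads or 200 pairs of gonads, and each was matched by 2 libraries of the 5% of chromatin kept as input. The sources used here do not state the fly genotypes, what carried the GFP, the age of the flies or the sex of those that gave the heads. No list was given per replicate, so the number of peaks had no replicate error and no comparison between lists was tested. Intervals are exact 95% Clopper-Pearson intervals and cover the counting of peaks only, and read depth was unknown.

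CLK and CYC are bHLH-PAS proteins that bind DNA as a heterodimer, usually at E-box sequences. In clock cells they activate period (per), whose gene lies on X, and timeless, whose protein products return to repress CLK and CYC. The X chromosome is present once in the cells of a male and as a pair in the cells of a female, and in somatic male cells its genes are transcribed at a higher rate by dosage compensation. Testis is male tissue and ovary female tissue, so the dose of X and the organ cannot be told apart here.

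The X chromosome held few testis peaks and, above all for CLK, many ovary peaks relative to its genes. It carries 2192 of the 13831 protein-coding genes of X, 2L, 2R, 3L and 3R, or 15.8%. In testis, X held 1.36% of CLK peaks (interval 0.947 to 1.9%) and 3.54% of CYC peaks (2.68 to 4.57%). In ovary it held 30.5% of CLK peaks (25.7 to 35.6%) and 20.6% of CYC peaks (18.8 to 22.4%). In the widest 50% of each list the ovary shares were 31.6% for CLK and 17.6% for CYC. Without the repeated blocks described below they were 26.7% and 17.6%, the CYC share lying close to the 15.8% of genes. The length of X was not compared with that of the other arms. In head the shares were 14.5% for CLK (12.4 to 16.8%) and 10.4% for CYC (7.57 to 13.9%).

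Counted per 100 protein-coding genes, CLK testis had 1.55 peaks on X, against 20.1 to 21.2 on the 4 autosome arms. CYC testis had 2.55 on X, against 11.5 to 13.5 on the autosome arms. In both testis lists X therefore lay far below the spread among the autosome arms. The order was turned round in ovary, where CLK had 4.88 peaks per 100 genes on X, against 1.56 to 2.15 on the autosome arms, and CYC had 18.5, against 10.7 to 14.4. In head CLK had 6.71 on X, against 7.18 to 7.79 on the autosome arms, and CYC had 1.87, against 2.6 to 3.4. The interval of the CLK head share held the 15.8% of genes, and that of the CYC head share lay below it. The density of X lay below all 4 autosome arms in the head and testis lists and above all 4 in the ovary lists.

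**Figure D1:**
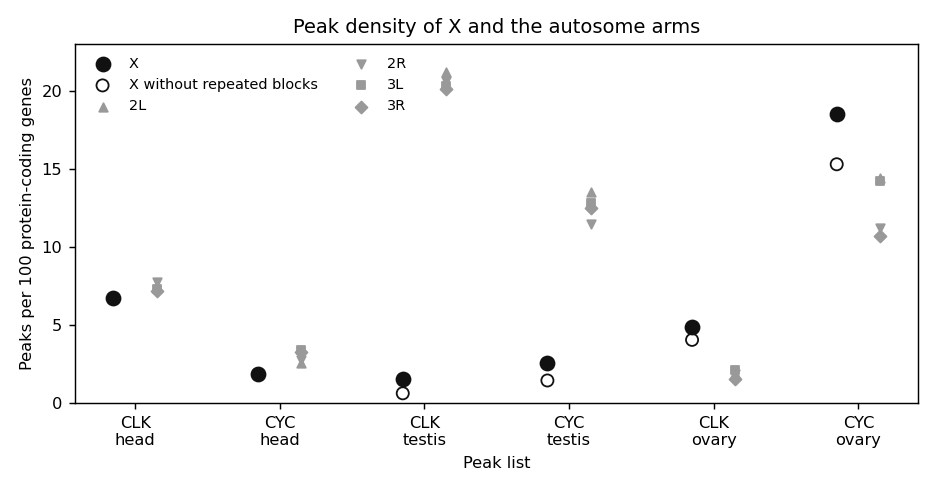
Peaks per 100 protein-coding genes on X (filled circles), on X without its repeated blocks (open circles, over the same 2192 genes) and on the autosome arms 2L, 2R, 3L and 3R (grey), for each peak list. CLK testis had 1.55 on X against 20.1 to 21.2 on the autosome arms, and CLK ovary had 4.88 on X against 1.56 to 2.15.

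Part of the X total came from blocks of repeated sequence, to which short reads cannot be assigned with certainty. The first block is the stretch past ATbp, the last protein-coding gene (X:23108332-23538603). It holds annotated 28S, 18S, 5.8S and 2S ribosomal RNA copies, most of them marked as pseudogenes. The other blocks are the array of Sdic genes (X:20174217-20225020), which encode sperm-specific dynein intermediate chains, and an array of CG45488 and similar genes (X:19917819-19959403). Without these 3 blocks, CLK testis kept 14 X peaks, CYC testis 32, CLK ovary 89 and CYC ovary 335, while the head lists had no peak in them. That left 0.639 and 1.46 X peaks per 100 genes for CLK and CYC in testis, and 4.06 and 15.3 for CLK and CYC in ovary. Peaks were removed from X only, so its values could only fall, and the testis values had to stay below those of the autosome arms. The ovary values stayed above those of every autosome arm, from which no repeats were removed.

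Along X, the gonad peaks gathered at the proximal end, on the side of the centromere, mostly in the stretch past ATbp. The last 1 Mb held 20 of 34 CLK testis peaks (58.8%, interval 40.7 to 75.4%), 25 of 56 CYC testis peaks (44.6%, 31.3 to 58.5%), 17 of 107 CLK ovary peaks (15.9%, 9.54 to 24.2%) and 40 of 406 CYC ovary peaks (9.85%, 7.13 to 13.2%). Only 25 of the 2192 protein-coding genes (1.14%) have their midpoint there. The stretch past ATbp, within this last 1 Mb, holds none of them by definition, which keeps the gene share low. Head had 1 CLK peak in the last 1 Mb, at Rab21, a gene for a small GTPase of endosomes (X:23013312-23013576), and no CYC peak. The count of 0 of 41 CYC head peaks allows a share of up to 8.6%.

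Most of the proximal gonad peaks lay past ATbp. Of the peaks in the last 1 Mb, that stretch held all 20 for CLK testis and 21 of 25 for CYC testis. In ovary it held 16 of 17 for CLK and 29 of 40 for CYC. The share of the last 1 Mb without that stretch was not computed. Peaks that met an annotated ribosomal RNA gene or pseudogene numbered 12 of 20 and 10 of 21 in testis, and 13 of 16 and 20 of 29 in ovary. Median widths there were 274.5 and 280 bp for CLK and CYC in testis and 300.5 and 330 bp for CLK and CYC in ovary. An example is the site over 18SrRNA-Psi:CR45861, within the precursor transcript pre-rRNA:CR45856. The peaks there ran X:23282016-23282811 for CLK testis, X:23282033-23282460 for CYC testis, X:23282031-23282910 for CLK ovary and X:23281996-23283048 for CYC ovary. Neither head list had a peak in the stretch.

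The distal end, on the side of the telomere, was less marked. The first 1 Mb held 3 CLK testis peaks (8.82%), 4 CYC testis peaks (7.14%), 3 CLK ovary peaks (2.8%), 16 CYC ovary peaks (3.94%), 5 CLK head peaks (3.4%) and 1 CYC head peak (2.44%), beside 3.92% of the protein-coding genes. The interval of each list held that gene share. In testis these shares count the peaks past ATbp, 20 of 34 for CLK and 21 of 56 for CYC. Without the repeated blocks, the 3 distal CLK testis peaks were among 14 X peaks and the 4 of CYC testis among 32. No interval was computed for those counts. The most distal peak was a CYC ovary peak at X:120992-121242, 3253 bp by its midpoint from the nearest end of CG17636. The most distal peak of the other lists was at 279312 for CLK head, 354739 for CLK ovary, 356051 for CLK testis, 359778 for CYC testis and 945885 for CYC head.

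Yellow (y, X:356509-361245), which encodes a secreted protein of the pigment pathway of the cuticle and lies inside the annotated span of CG32816, accounted for several of the distal peaks. Inside y, peaks ran X:359751-360263 for CLK testis, X:359778-360567 for CYC testis and X:359877-360239 for CLK head. Just outside its distal end, CLK testis had a peak at X:356051-356399 and CLK ovary one at X:356180-356418, and a wider CLK ovary peak of 1110 bp lay at X:354739-355849. Neither CYC head nor CYC ovary had a peak in y or within 1 kb of it. Farther in, and still within CG32816, CYC testis had 3 peaks between 428613 and 434455 and CYC ovary had 4 between 428561 and 434544.

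**Figure D2:**
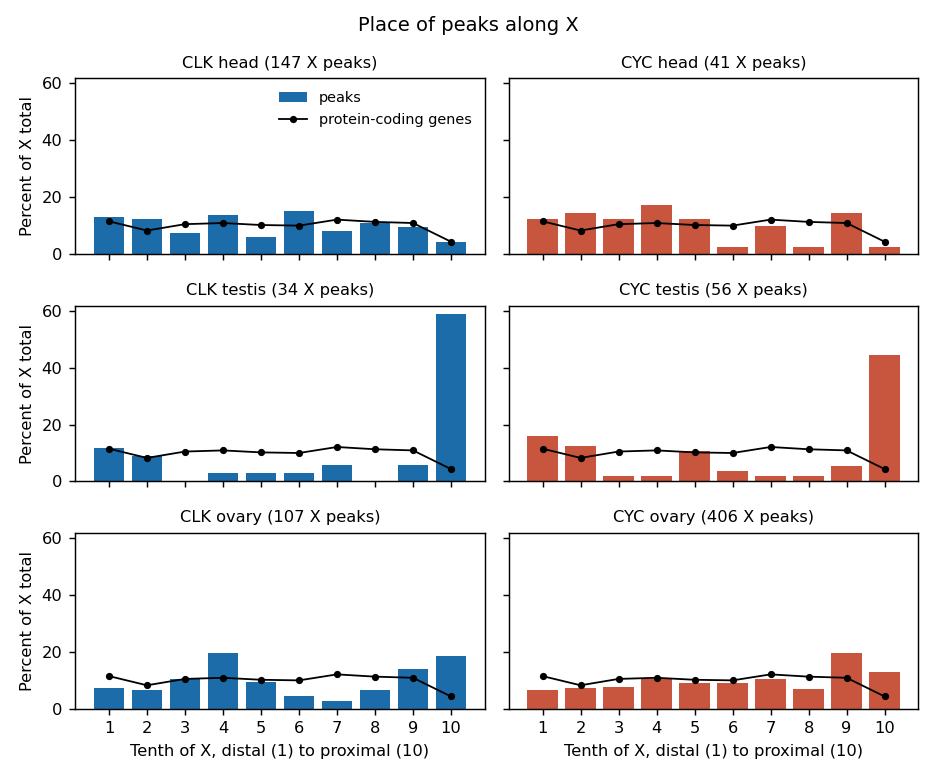
Percent of the X peaks of each list (bars; CLK blue, CYC red) in each of 10 equal parts of X from the distal to the proximal end, with the percent of protein-coding genes as a black line. The most proximal of these held 58.8% of CLK testis and 44.6% of CYC testis peaks, beside 4.33% of the genes. It includes the stretch past ATbp, which holds no protein-coding gene.

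Away from the proximal end, head peaks were spread along X. Median positions were 10.3 Mb for CLK head and 8.24 Mb for CYC head, beside 11.6 Mb for the midpoints of genes. For ovary they were 11.1 Mb for CLK and 14.2 Mb for CYC. Of 10 equal parts of X counted from the distal end, part 4 held 21 of 107 CLK ovary peaks (19.6%), beside 10.9% of the genes, and part 9 held 80 of 406 CYC ovary peaks (19.7%), likewise beside 10.9% of the genes. Part 9 contains both the Sdic and the CG45488 arrays, which held 22 and 20 of its 80 CYC ovary peaks. The share of part 9 without these arrays was not computed.

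Runs of 3 or more peaks of a list, with under 5 kb between neighbours, showed where X peaks crowded. CYC ovary had 25 such runs, with 134 of its 406 peaks. The longest, with 22 peaks, covered Sdic1, Sdic2, Sdic3, SdicA, SdicB and SdicC (X:20177186-20220175), and the next, with 20 peaks, covered the CG45488 array (X:19920145-19958447). In CYC testis, 1 peak lay in the Sdic array and 2 in the CG45488 array, and CLK testis had none in either. CLK ovary had 6 runs, of which the longest held 8 peaks inside CG33181 (X:8499751-8510999). CLK testis had 4 runs, all past ATbp, and CYC testis had 7, of which 3 lay past ATbp. CLK head had 2 runs, the 3 peaks at per and 4 peaks from mamo towards ben (X:13986455-13995232), and CYC head had none. Of those 4, 2 lay inside mamo, a zinc finger gene required in the female germline, 1 lay just past its end and 1 lay 1243 bp by its midpoint from the nearest end of ben, a ubiquitin-conjugating enzyme gene.

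On X, peaks lay close to gene ends in head and mostly away from them in testis and ovary. A peak counted as near an end when its midpoint was 1 kb or less from either limit of a protein-coding gene, since the annotation used gave no strand. On X this held for 97 of 147 CLK head peaks (66%, interval 57.7 to 73.6%) and 31 of 41 CYC head peaks (75.6%, 59.7 to 87.6%). The shares over the whole head lists were 63.7% and 70.8%, inside both intervals. In testis it held for 5 of 34 CLK peaks (14.7%, 4.95 to 31.1%) and 11 of 56 CYC peaks (19.6%, 10.2 to 32.4%), against 45.8% of the whole CLK testis list and 39.4% of the whole CYC testis list, which lay above the intervals. Without the repeated blocks the X shares in testis were 35.7% for CLK, from 14 peaks, and 34.4% for CYC, from 32 peaks. In ovary the X shares were 25.2% for CLK (17.3 to 34.6%) and 39.9% for CYC (35.1 to 44.8%). Without the repeated blocks they were 28.1% and 40%. The shares of the whole ovary lists were 28.8% and 40.4%. Those whole lists include the X peaks themselves (30.5% of CLK and 20.6% of CYC) and peaks outside X, 2L, 2R, 3L and 3R. The share on the autosome arms alone was not computed. The shares depended on the window: with 3 kb they were 38.2% and 48.2% for CLK and CYC in testis and 55.1% and 73.6% for CLK and CYC in ovary, and with 500 bp 5.88% for CLK testis, 8.93% for CYC testis, 12.1% for CLK ovary and 25.4% for CYC ovary.

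The other X peaks fell inside genes or between them. Peaks inside a gene and over 1 kb from any end numbered 38 of 147 (25.9%) for CLK head, 10 of 41 (24.4%) for CYC head, 6 of 34 (17.6%) for CLK testis and 11 of 56 (19.6%) for CYC testis. In ovary they numbered 45 of 107 (42.1%) for CLK and 141 of 406 (34.7%) for CYC. No CYC head peak lay between genes, and 12 CLK head peaks (8.16%) did. Between genes lay 23 CLK testis peaks (67.6%), 34 CYC testis peaks (60.7%), 35 CLK ovary peaks (32.7%) and 103 CYC ovary peaks (25.4%).

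**Figure D3:**
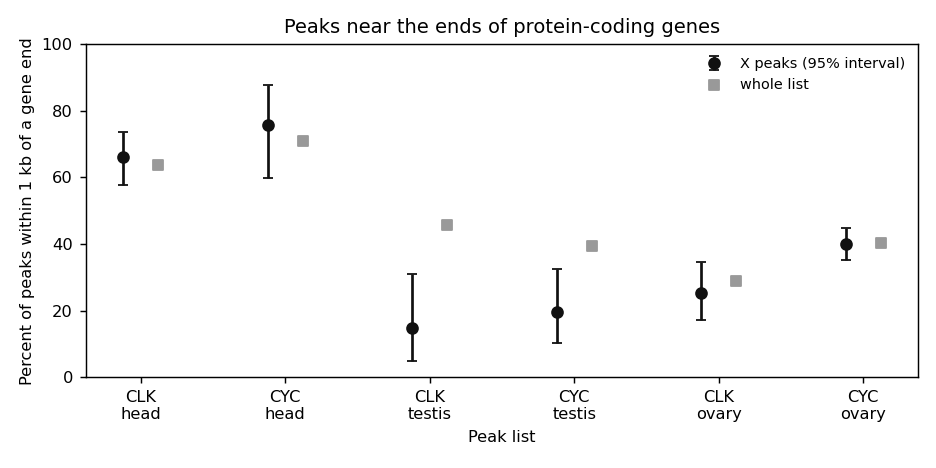
Percent of X peaks whose midpoint is at most 1 kb from either limit of a protein-coding gene (black, with exact 95% intervals) and the same percent over each whole list (grey squares). The testis lists stood at 14.7% and 19.6% on X, against 45.8% and 39.4% over the whole lists.

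X peaks were about as wide as autosomal ones at the median. Median widths on X were 278 bp for CLK head and also for CYC head, 261 bp for CLK testis, 304.5 bp for CYC testis, 300 bp for CLK ovary and 293 bp for CYC ovary. On the autosome arms the medians were 287 bp for CLK head, 281 bp for CYC head, 275.5 bp for CLK testis, 271 bp for CYC testis, 288.5 bp for CLK ovary and 318 bp for CYC ovary. The widths of single lists spread much more than these medians differed, with quartiles of 227.8 and 431.8 bp for CYC testis on X.

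The wide end of the range differed by list. On X, 36 of 406 CYC ovary peaks were 1000 bp or wider (8.87%), against 11.2% on the autosome arms, and 6 were 4000 bp or wider, against 22 on the autosome arms. In CLK ovary 2 of 107 X peaks reached 1000 bp (1.87%), against 7.34% on the autosome arms. The widest X peak of all was a CYC ovary peak of 5644 bp between genes, 3098 bp from the nearest end of eIF3g1, a gene of a translation initiation factor subunit (X:2610612-2616256). The next 3 were also of CYC ovary: one inside CG3777 (X:296015-301565, 5550 bp), one 4525 bp from the nearest end of CG12680 (X:4990162-4995670, 5508 bp) and one inside fne, which encodes a neuronal RNA-binding protein (X:12930747-12936213, 5466 bp). Within the span of the eIF3g1 peak, CYC testis had 3 peaks of 237, 764 and 244 bp.

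**Figure D4:**
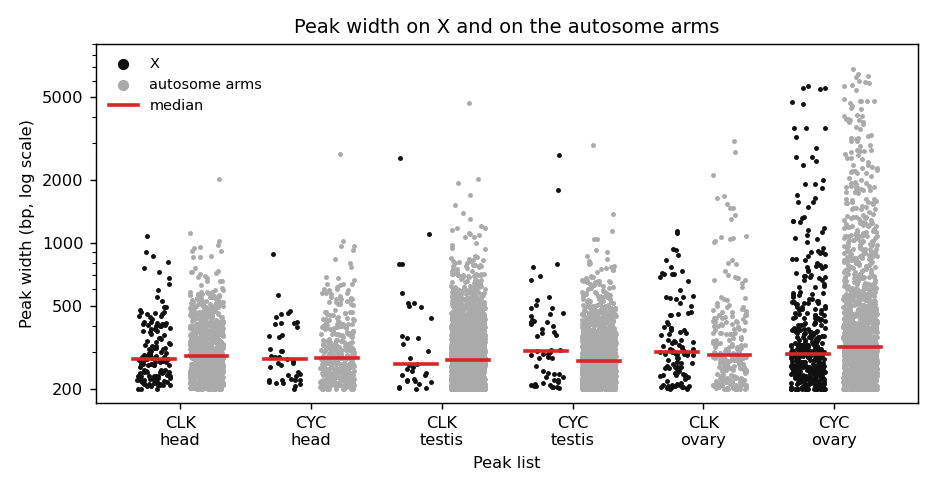
Width of every peak on X (black) and on the autosome arms (grey) by list, on a log axis, with medians as red bars. X medians ran from 261 bp for CLK testis to 304.5 bp for CYC testis, and the widest X peak was 5644 bp, in CYC ovary.

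Merged at 1 bp in common, the 791 X peaks formed 653 regions, of which 560 (85.8%) belonged to a single list. Another 69 belonged to 2 lists, 15 to 3, 8 to 4 and 1 to 5, and no region belonged to all 6. All 8 regions of 4 lists held the same lists, both proteins in testis and ovary, and all lay past ATbp. Of the 24 regions in 3 or more lists, 15 lay there. By tissue, 165 regions were of head alone, 16 of testis alone and 416 of ovary alone, 47 joined testis and ovary, 6 joined head and ovary, 2 joined head and testis, and 1 joined all 3.

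The region of 5 lists lay in white (w, X:2790599-2796466), the gene of an eye pigment transporter, which overlaps the span of kirre, a gene of the immunoglobulin superfamily that acts in myoblast fusion. It ran X:2790577-2793169 and lacked only a CLK ovary peak. Its peaks were 2565 bp in CLK testis, the widest X peak of that list, 387 and 1798 bp in CYC testis, 252 bp in CYC ovary, 866 bp in CLK head and 272 bp in CYC head. The 2565 bp and 1798 bp testis peaks were the widest at this site, and the other CYC testis peak was narrower than the CLK head peak. Of the 8 regions of 3 lists outside the stretch past ATbp, 5 held both ovary lists and 1 further list, and the others lay at w, y and per. That list was CYC testis near Cph (X:7131525-7131959), at baz and TTLL1A (X:17199398-17200135) and in CG42249 (X:11099477-11103022). It was CLK testis near CG12679 (X:20377487-20378651) and CYC head in CG44774 (X:4931247-4931954). At the other end of w, peaks of CLK testis (X:2796089-2796666), CYC testis (X:2796132-2796635) and CLK head (X:2796241-2796733) overlapped. Both w and y are common marker genes of fly strains and constructs; the fly genotypes are not stated, and whether construct sequence took part in these peaks was not tested.

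Between CLK and CYC of the same tissue, the intervals for sharing on X held the share of the whole lists in head. In head, 14 of 41 CYC X peaks met a CLK peak (34.1%, interval 20.1 to 50.6%), beside 29.4% of the whole CYC list; in the widest 50% of each list the X share was 10%. Likewise 14 of 147 CLK X peaks met a CYC peak (9.52%, 5.31 to 15.5%), beside 11.5% of the whole CLK list. In testis, 17 of 34 CLK X peaks met a CYC peak (50%, 32.4 to 67.6%), against 8.91% of the whole CLK list, and 19 of 56 CYC X peaks met a CLK peak (33.9%, 21.8 to 47.8%), against 14.3% of the whole CYC list. Without the repeated blocks of X these fell to 4 of 14 (28.6%) and 5 of 32 (15.6%). In ovary, 40 of 107 CLK X peaks met a CYC peak (37.4%, 28.2 to 47.3%), beside 31.3% of the whole list, and 41 of 406 CYC X peaks met a CLK peak (10.1%, 7.34 to 13.4%), against 5.11%. The whole ovary lists include many X peaks; on the autosome arms alone the shares were 23.4% for CLK and 3.31% for CYC, both below the X intervals. With a reciprocal overlap of 50% the CLK ovary share on X was 20.6%. Without the repeated blocks the ovary shares on X were 25.8% and 6.57%.

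Head regions of both proteins numbered 14 on X, and per held 2 of them. At the first, beside the distal end of per (X:2685580-2692780), the CLK peak ran X:2684540-2685615 (1075 bp) and reached just inside the gene, and the CYC peak ran X:2684541-2685425 (884 bp) and stopped short of it. At the second, inside per, the CLK peak ran X:2687168-2687980 (812 bp) and the CYC peak X:2687286-2687848 (562 bp). The peaks beside the gene end were the widest X peaks of each head list. Between these regions CLK had a further peak (X:2685782-2686184) that no CYC peak met. In the gonads the only peak in per or within 1 kb was a CYC ovary peak of 325 bp (X:2687053-2687378), which met the CLK and the CYC head peak of the second region.

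Other head regions of both proteins included norpA, ct and btd. norpA encodes the phospholipase C of phototransduction, and its CLK peak (X:4347534-4347935) and CYC peak (X:4347583-4347802) lay deep inside the gene, with midpoints 17673 and 17715 bp from its nearest end. ct, a homeobox gene, had a CLK peak (X:7608101-7608502) and a CYC peak (X:7608150-7608380) at one end, and btd, a zinc finger gene of head segmentation, had CLK at X:9693900-9694125 and CYC at X:9693806-9694108. Further pairs met at CG4199 and Rtca, CG4119, csw, parvin, dpr18, eIF2alpha, Ykt6 and CG2260, and, as above, at w. At sni the peaks did not meet, with CLK at X:8243692-8244283 and CYC at X:8243120-8243561.

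Testis regions of both proteins numbered 17, of which 4 lay outside the stretch past ATbp. These were 2 at w, 1 at y and 1 beside Ste:CG33247, a gene of the Stellate cluster, where the CLK peak ran X:14045807-14046165 and the CYC peak X:14045961-14046167. The widest CYC testis peak of X, which reached into the end of Act5C, a cytoplasmic actin gene (X:5898333-5900970, 2637 bp), was met by no other peak of X. Ovary regions of both proteins numbered 39. Those past ATbp were the 8 regions of 4 lists, 2 with CLK testis, 2 with CYC testis and 3 of the ovary lists alone. Both CLK ovary peaks in the CG45488 array also met CYC ovary peaks. Wide examples elsewhere were su(w[a]) and CG42249. At su(w[a]), a splicing regulator gene, CYC ran X:1034801-1038364 and CLK X:1036187-1036638. In CG42249, CYC ran X:11099477-11103022 and CLK X:11101442-11102178. CG42249 held 3 peaks each of CLK ovary, CYC ovary and CYC testis. The widest CLK ovary peak of X (X:8492438-8493577, 1139 bp) lay inside CG33181.

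Between tissues, head shared few X sites with the gonads. For CLK, 3 of 147 head peaks met a testis peak (2.04%, beside 2.85% of the whole head list) and 2 met an ovary peak (1.36%, beside 0.295%). Seen from the gonads, 3 of 34 CLK testis peaks met a head peak (8.82%, beside 1.16% of the whole testis list), all of them at y or w, and 2 of 107 CLK ovary peaks did (1.87%, beside 0.855%). For CYC, 1 of 41 head peaks met a testis peak (2.44%, beside 2.03%), at w, and 3 met an ovary peak (7.32%, beside 1.27%). From the other side, 1 of 56 CYC testis peaks met a head peak (1.79%, beside 0.505%) and 3 of 406 CYC ovary peaks did (0.739%, beside 0.253%). With 1 to 3 peaks each, these shares had wide intervals, such as 0.165 to 4.83% for CLK head with CLK ovary.

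Testis and ovary shared more. Of the CLK testis X peaks, 17 of 34 met a CLK ovary peak (50%, interval 32.4 to 67.6%), against 2.81% of the whole testis list, and 31.2% did in the widest 50% of each list. In turn, 17 of 107 CLK ovary X peaks met a testis peak (15.9%, 9.54 to 24.2%), beside 21.1% of the whole ovary list. Of the CYC testis X peaks, 41 of 56 met a CYC ovary peak (73.2%, 59.7 to 84.2%), against 13.3% of the whole list; the share was 33.9% when a reciprocal overlap of 50% was asked for and 41.1% for midpoints within 200 bp. From the other side, 36 of 406 CYC ovary X peaks met a testis peak (8.87%, 6.29 to 12.1%), beside 10.2%. Without the repeated blocks the testis shares were 6 of 14 for CLK (42.9%) and 23 of 32 for CYC (71.9%). Seen from ovary, the shares fell to 6 of 89 for CLK (6.74%) and 19 of 335 for CYC (5.67%), both below the intervals above. On the autosome arms, with repeats kept, the CLK and CYC shares were 1.68% and 10.5% from testis, and 17.4% and 10.5% from ovary. The CYC ovary list was also the longest on X. Over all 5 other lists, 4 CLK testis peaks and 9 CYC testis peaks of X were met by none, against 58 of 107 in CLK ovary, 336 of 406 in CYC ovary, 128 of 147 in CLK head and 25 of 41 in CYC head.

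**Figure D5:**
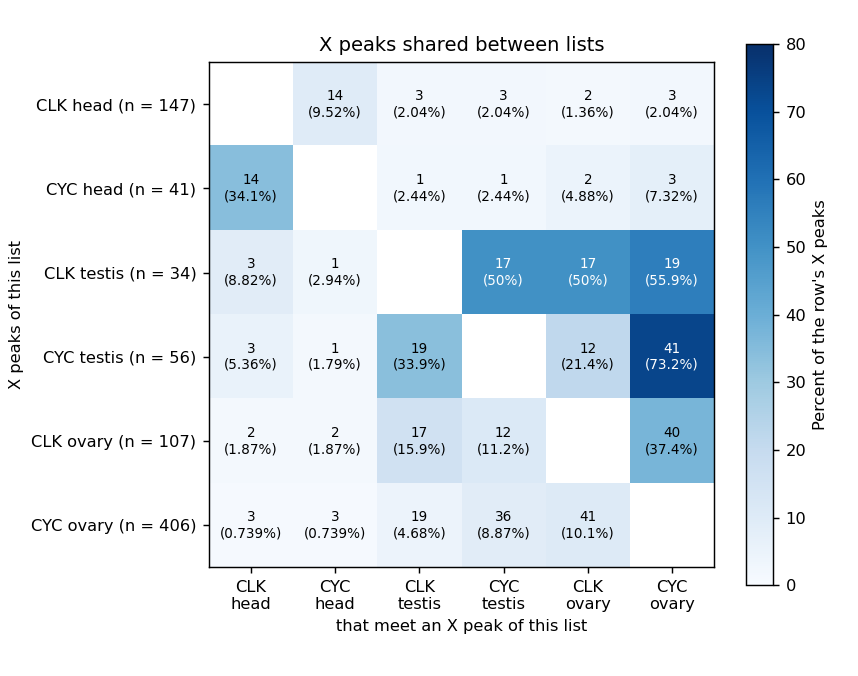
Number and percent of the X peaks of each list (rows) with at least 1 bp in common with an X peak of another list (columns). CYC testis met CYC ovary at 41 of 56 peaks (73.2%, and 33.9% with a reciprocal overlap of 50%), while no head list shared over 7.32% of its peaks with a gonad list.

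Genes of X were then counted as holding a peak when a midpoint lay inside the gene or within 1 kb of it. Of the 2192 protein-coding X genes this held for 8.58% with CLK head, 2.83% with CYC head, 0.547% with CLK testis, 0.821% with CYC testis, 2.87% with CLK ovary and 13.5% with CYC ovary. Long genes are more likely to hold a peak, and gene length was not allowed for. In head, 188 genes held a CLK peak, 62 a CYC peak and 27 both. In testis these counts were 12, 18 and 6 (CG32816, Ste:CG33247, dnc, kirre, w and y), and in ovary 63, 295 and 30. A peak counted for every gene it lay in or near. Testis peaks at w thus also counted for kirre, and those at y for CG32816. Some genes held both proteins in peaks that did not meet, as dnc in testis and Hk and sni in head. The overlap given by the sizes of these sets alone was not computed.

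Core clock genes on X were per, sgg, CkIIbeta and Pdfr. Pdfr, the receptor of the neuropeptide PDF, had no peak in any list. CLK head had 2 of the 4, with 3 peaks at per and 2 at sgg, the gene of the kinase Shaggy, and CYC head had per alone. CYC ovary had 3 of the 4, per, sgg with 4 peaks and CkIIbeta, the gene of the regulatory subunit of casein kinase 2, with 1. No sgg peak of CLK head met one of CYC ovary, and neither testis list nor CLK ovary had any member.

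Of the 19 X genes for transcription factors, CLK head had 6, Bx, disco, disco-r, oc, btd and ct, and CYC head had btd and ct. Bx encodes a LIM-only protein, disco and disco-r zinc finger proteins of visual system and head development, and oc a homeodomain protein of the head and ocelli. The CLK head peak at Bx (X:18515359-18516260, 901 bp) also met HisRS, and that near disco (X:16216920-16217678, 758 bp) lay just past the gene. CLK ovary had ct and br, CYC ovary had B-H2, ct and br, and neither testis list had any. At ct (X:7608428-7678859) the CLK ovary peaks lay at the proximal end, at X:7677536-7678245, X:7678419-7678651 and X:7678859-7679548. CYC ovary had peaks at both ends, X:7608573-7608978 near the shared head region and X:7677807-7678181 within the first CLK ovary peak, and another outside the distal end (X:7606103-7606472). Besides the shared region, CLK head had a peak outside the distal end (X:7606978-7607194) and one deep inside the gene (X:7629155-7629610).

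Of 11 ion channel and receptor genes of neurons, CLK head had Sh, Hk, nAChRalpha3 and Nmdar2, CYC head had Hk, CLK ovary had Sh, Hk and SK, and CYC ovary had Hk and nAChRalpha7. Sh and Hk encode a voltage-gated potassium channel and its beta subunit. The CLK head peak counted for Nmdar2 (X:1483156-1483425) met sta and lay outside Nmdar2. The CLK head and CLK ovary peaks inside Sh had their nearest gene end at CG12672. Assigned by nearest end, CLK head had 2 of the 11, Hk and nAChRalpha3. At Hk a CYC head peak (X:10262166-10262376) lay within a CLK ovary peak (X:10262011-10262465), while the CLK head peak was elsewhere in the gene (X:10246636-10246853). Of 4 phototransduction genes, both head lists had norpA and both ovary lists had rdgA, a diacylglycerol kinase gene. Assigned by nearest end, CLK ovary had none of these 4. Of 7 eye pigment genes, w alone had peaks. Of 8 genes of cell adhesion and Notch signalling, kirre held peaks in every list, N had a CYC head peak near an end (X:3134565-3135028) and dlg1 had CYC ovary peaks. The kirre peaks of CLK head, of both testis lists and of CYC ovary were those at w, while the 2 of CLK ovary lay elsewhere (X:2809113-2809376 and X:2937447-2937678) and 1 of the 2 of CYC head was the peak at N. Of y and the 4 achaete-scute genes, only y had peaks, in CLK head, CLK testis, CYC testis and CLK ovary.

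Of 16 X genes for the female germline, eggshell and yolk, CYC ovary had 7, beside 13.5% of all protein-coding X genes. These were otu, fs(1)h, Yp3 and the neighbours Cp36, Cp7Fa, Cp7Fb and Cp7Fc. CLK ovary had otu, and no head or testis list had any. The peak counted for Yp3 (X:13758909-13759205) lay outside Yp3, with its nearest gene end at Rtc1. Assigned by nearest end, CYC ovary had 6 of the 16, without Yp3. The chorion genes Cp7Fa, Cp7Fb, Cp7Fc, Cp36 and Cp38 encode eggshell proteins and lie in a cluster that ovarian follicle cells amplify (X:8470888-8483311). CYC ovary had a run of 8 peaks across it and its flanks (X:8465575-8484817), among them X:8473373-8473606 near Cp7Fb, X:8477212-8477411 in Cp7Fc and X:8480372-8481143 at the end of Cp36, while CLK ovary had none inside the cluster. The copy number of the cluster in these flies was not measured, and its part in the peaks was not tested. Sxl, the switch gene of sex determination, had a CYC ovary peak deep inside it (X:7087298-7087599), the only peak among 6 genes of sex determination and dosage compensation, which included roX1 and roX2.

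Of 16 listed X genes of the Stellate and sperm dynein families, CYC ovary had 13 and both testis lists had Ste:CG33247 alone. The head lists and CLK ovary had none. SdicA, SdicB, SdicC and Ste12DOR were not on this list. The 1 CYC testis peak in the Sdic array lay beside SdicA, in the region X:20196112-20196465. The Stellate genes encode a protein like the beta subunit of casein kinase 2 and are silenced in the testis by piRNAs. The 13 genes of CYC ovary were Sdic1 to Sdic4 and 9 Stellate genes. Neighbouring copies shared peaks, so that 5 CYC ovary peaks served these 9 Stellate genes. Copies of both families are nearly identical, so the peaks cannot be assigned to single copies. The Stellate genes were not among the 3 repeated blocks left out above, so the 5 CYC ovary peaks, the CLK and CYC testis peaks beside Ste:CG33247 and their overlap stayed in the values given without those blocks.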

How the data were processed

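ChIP-seq of CLK and CYC from head, testis and ovary, 24 libraries in 12 groups, was represented by 6 peak lists. The authors deposited only the position of each peak (3 columns), with no height, score or other value per peak. The genome build was dm6, per the submitters' processing notes, which also name, with no version, MACS2, Bowtie2, fastp, SAMtools, Picard, ChIPseeker and deepTools. The peak threshold and how replicates were combined are not given in the sources used here. Lists were assigned to tissues by the initial in their names. Starts are printed as deposited, and whether they count from 0 or 1 is unknown. Gene positions came from NCBI RefSeq (Release 6 plus ISO1 MT) without strand, exons or sequence, so the planned CACGTG search was not run and no sequence is shown.

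Peaks were compared in Python 3.11.15 with pandas 2.3.3, numpy 2.4.6 and scipy 1.17.1. Overlap meant 1 bp in common. These steps were tested on simulated data. The end of X was set at the last peak or gene. Genes were named by rule: the 5 widest X peaks per list, regions of 3 or more lists, up to 10 regions of both proteins per tissue, outermost peaks, runs of peaks, and up to 4 members of each of 10 gene lists. Further runs, regions and list members with a peak, and sni and dnc, were named after their values were seen. SteXh was not matched. The members and lists were chosen with earlier results of these data known. Alternatives covered overlap rules, windows, the widest 50% of peaks and, chosen after seeing the data, leaving out the repeated blocks.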

Additional observations from a re-analysis of the deposited data

How the results depend on the processing

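No paired analysis was possible because each protein and tissue has a single list that carries no replicate. Of 150 alternative values, 112 stayed within the interval of the reported one (for counts, within 1.5 times; for widths, within the exact binomial interval of the median) and 38 moved outside it; these 38 follow, and the causes were not tested beyond what each setting itself removes. The X share was 0.567% for CLK testis, 2.05% for CYC testis and 17.6% for CYC ovary without the repeated blocks, and 17.6% for CYC ovary in the widest 50%. The distal share was 9.52% for CLK head with 2 Mb and 0% for CYC head with 500 kb, and the proximal share of CLK head was 0% both with 500 kb and in the widest 50%. Shares near gene ends with a window of 3 kb were 82.3% and 90.2% for CLK and CYC of head, 38.2% and 48.2% for those of testis, and 55.1% and 73.6% for those of ovary. With 500 bp they were 8.93% for CYC testis, 12.1% for CLK ovary and 25.4% for CYC ovary. CYC ovary had 34.3% in the widest 50%, and without the repeated blocks CLK testis had 35.7% and CYC testis 34.4%. Sharing with the partner protein fell to 10% for CYC head in the widest 50% and to 28.6% for CLK testis without the repeated blocks. For CLK ovary it was 20.6% with reciprocal overlap of 50%, 28% with midpoints within 200 bp and 25.8% without the repeated blocks. CLK testis met CLK ovary at 31.2% in the widest 50%. CYC head met CYC testis at 0% with reciprocal overlap, with midpoints and in the widest 50%. CYC testis met CYC ovary at 33.9% with reciprocal overlap and 41.1% with midpoints. Regions in 2 or more lists numbered 44, and in 3 or more 12, in the widest 50%, and those in 3 or more numbered 9 without the repeated blocks. With ends within 1 kb only, list genes with a peak numbered 9 for CLK head, 5 for CYC head, 2 for CYC testis and 2 for CLK ovary. Median widths stayed within that interval in the 3 alternatives run for them. Read depth and replicate error were unknown, so the absence of a peak does not show that a site was unbound.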
